A study of Mus musculus with 12 samples.

Results

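The comparison described here asks whether mesenchymal stem cells (MSC) shifted liver gene expression differently at 6 h and at 12 h after injection of concanavalin A (Con A). Liver RNA was sequenced from wild-type C57BL/6 mice in 4 groups of 3 libraries, and all 12 libraries of the series entered the comparison. Livers of the groups Con A 6h and Con A 12h had received Con A alone, and those of Con A+MSC 6h and Con A+MSC 12h had received MSC as well. All mice had Con A, so no value is relative to an uninjured liver, and time after Con A cannot be told apart from time of day. For each gene the log2 difference between livers with and without MSC was taken at 12 h, and the same difference at 6 h was subtracted from it. This value, called the difference of the MSC effect, is positive where the level with MSC relative to Con A alone was higher at 12 h than at 6 h. It was computed for the 14275 of 23574 genes and assembled loci that had enough counts, and 18 of them passed.

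Con A is a plant lectin that activates T cells. In the mouse it causes an acute immune hepatitis in which lymphocytes, Kupffer cells (macrophages that live in the liver), sinusoidal endothelial cells and hepatocytes all take part. Cytokines and chemokines are released early, interferons switch on a broad set of antiviral genes, and a repair programme follows. MSC are stromal cells studied for their ability to dampen immune reactions, in part through prostaglandin E2.

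Library totals ran from 29688137 to 36131512 counts, and 3 counts in a library equalled 0.0657 to 0.119 CPM (counts per 1000000 counts, scaled with TMM factors), which is also the level that a count of 0 allows. That limit covers counting error only. The labels give liver as the tissue while the series text speaks of hepatocyte RNA. Hepatocyte, endothelial and macrophage markers were all present: Alb ran from 18950 to 71961 CPM, the endothelial scavenger receptor Stab2 from 10.6 to 27.2 CPM and the Kupffer cell lectin Clec4f from 0.492 to 18.3 CPM. The T cell gene Cd3e did not exceed 0.886 CPM. In such bulk RNA, fewer cells of a type and less RNA per cell cannot be told apart. The share of counts from mitochondrially encoded genes differed within the Con A 12h group, at 5.59%, 17.3% and 24.9% in replicates 1, 2 and 3. Elsewhere it averaged 9.79% ± 2.01 (Con A 6h), 11.5% ± 0.567 (Con A+MSC 6h) and 7.74% ± 1.49 (Con A+MSC 12h; SD, n = 3 each). The labels do not say that replicates came from separate mice, and if they did not, the p-values reflect technical spread alone.

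Of the 14275 genes, 18 (0.126%) passed at an adjusted p below 0.05 (edgeR quasi-likelihood test with Benjamini-Hochberg adjustment). Of these, 9 were higher at 12 h (0.063% of genes) and 9 were lower (0.063%). With scaling by library totals in place of TMM factors, which moved the median of all genes from 0.01 to 0.28, the split was 187 higher and 24 lower. At an unadjusted p below 0.05 there were 2401 genes (16.8%), of which 1383 (9.69%) were higher and 1018 (7.13%) lower. The median over all genes tested was 0.01. The sign of the MSC difference turned between the times in all but 1 of the 18: 9 were lower with MSC at 6 h and higher at 12 h, and 8 were higher at 6 h and lower at 12 h. The remaining gene, Adcy1, was lower with MSC at both times. Over all genes tested these classes held 24.7%, 23.6% and 26.1%. Livers with and without MSC did not overlap at 6 h for 12 of the 18 and at 12 h for 13, against 16.6% and 26.4% of all genes tested. Since the test uses the same libraries, these last counts are a description and support nothing.

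The number of calls moved with single libraries. Without 1 library the count of higher genes ran from 0 to 95 and of lower genes from 3 to 74. It grew without Con A 6h replicate 1 (61 higher and 36 lower), Con A 12h replicate 1 (50 and 74), Con A 12h replicate 3 (95 and 25) or replicate 1 of Con A+MSC 12h (73 and 58), and wherever a call is said to hold in 4 of 12 fits, these are the 4. It shrank to 0 and 3 without Con A 12h replicate 2, and to 2 to 4 higher and 3 to 6 lower without any of the other 7 libraries. With the mitochondrial share as a covariate, 5 of the 18 passed: Hpgd, Syt12, Zbtb16, Gm45717 and MSTRG.15211.

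**Figure D1:**
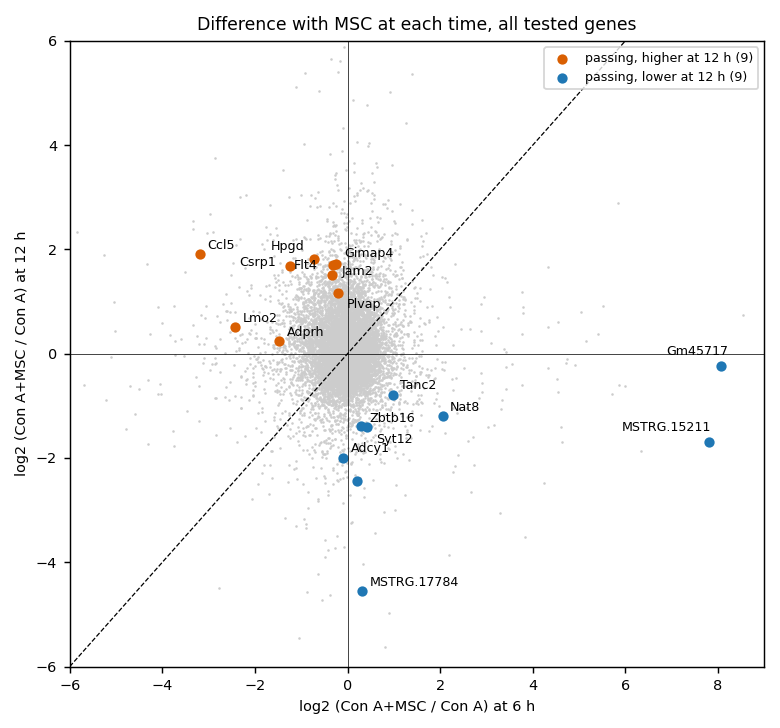
Log2 difference between livers with and without MSC at 6 h (x axis) and at 12 h (y axis), 1 point per gene; 14237 of the genes tested lie inside the axes and 38 outside. Coloured points are genes that passed, named where they are described, and the dashed line marks equal differences at both times: 9 passing genes lie above it and 9 below.

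**Figure D2:**
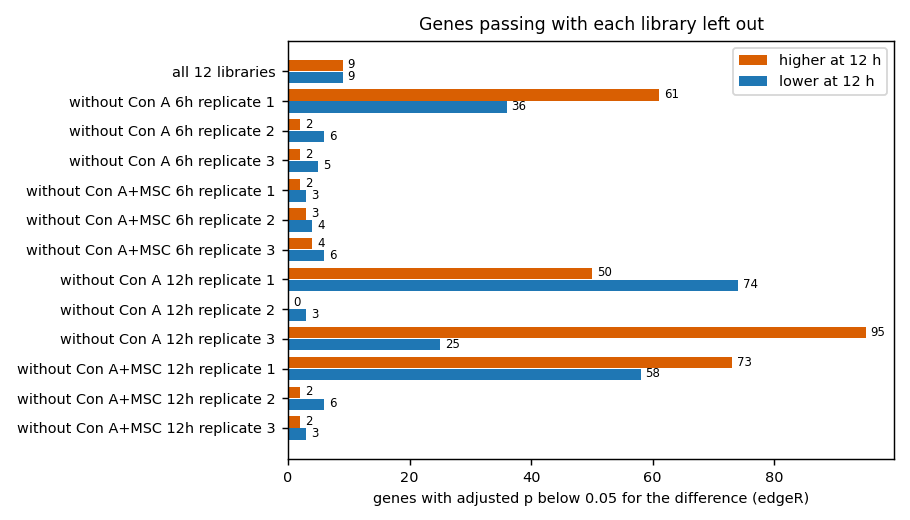
Number of genes passing, higher and lower, with all 12 libraries and without each library in turn. With all libraries there were 9 and 9; the counts ran from 0 to 95 for higher genes and from 3 to 74 for lower genes.

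Among the genes that were higher at 12 h, those furthest below Con A alone at 6 h were Ccl5, Lmo2 and Adprh. Ccl5, the chemokine RANTES that attracts T cells and monocytes, measured 15.3, 29.8 and 21.7 CPM at 6 h with Con A alone and 3.34, 1.13 and 2.89 CPM with MSC. At 12 h Ccl5 measured 0.485, 1.31 and 2.44 CPM with Con A alone and 2.03, 5.65 and 7.93 CPM with MSC. Every MSC liver was below every Con A liver at 6 h, while at 12 h the MSC livers were higher on average and 1 of them lay within the Con A range. The log2 difference was -3.18 ± 0.60 (SE) at 6 h and 1.91 ± 0.59 at 12 h, and the difference of the MSC effect of 5.09 ± 0.84 passed (adjusted p = 0.0433, edgeR). With 1 library left out, it ran from 4.63 (no Con A 12h replicate 1) to 5.72 (no Con A 12h replicate 3).

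Lmo2, a LIM-domain cofactor of blood and endothelial transcription, measured 12.2, 29.3 and 23.1 CPM at 6 h with Con A alone and 4.06, 3.49 and 4.46 CPM with MSC. At 12 h the values were 2.60, 2.07 and 3.81 CPM against 3.78, 3.86 and 4.34 CPM. The groups were apart at 6 h and met at 12 h. Its difference of the MSC effect was 2.93 ± 0.43 (adjusted p = 0.0201, edgeR). Adprh, which removes ADP-ribose from arginine residues of proteins, was at 29.0, 25.6 and 22.8 CPM at 6 h with Con A alone and at 10.5, 6.99 and 10.4 CPM with MSC. It was at 8.73, 9.35 and 11.1 CPM at 12 h with Con A alone and at 9.31, 12.3 and 12.8 CPM with MSC. Again the groups were apart at 6 h only, and the value was 1.71 ± 0.28 (adjusted p = 0.0433, edgeR). The calls of Ccl5, Lmo2 and Adprh each held in 4 of 12 fits without 1 library, with adjusted p up to 0.154, 0.0925 and 0.154.

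Hpgd and Csrp1 were lower with MSC at 6 h and higher with MSC at 12 h, with no overlap of the groups at either time. Hpgd, the dehydrogenase that begins the breakdown of prostaglandin E2, measured 98.7, 161 and 138 CPM at 6 h with Con A alone and 81.8, 64.7 and 95.2 CPM with MSC. At 12 h Hpgd measured 7.20, 7.68 and 9.65 CPM with Con A alone and 25.0, 27.4 and 33.2 CPM with MSC. The level was lower at 12 h than at 6 h in every library of both treatments, and the MSC livers had the higher level at 12 h. The log2 difference was -0.72 ± 0.21 at 6 h and 1.81 ± 0.22 at 12 h, which gave 2.52 ± 0.30 (adjusted p = 0.00912, edgeR). Csrp1, a LIM-domain protein of the actin cytoskeleton, was at 26.2, 45.2 and 28.6 CPM at 6 h with Con A alone and at 14.4, 13 and 15.0 CPM with MSC. It was at 5.00, 4.40 and 5.51 CPM at 12 h with Con A alone and at 10.4, 20.2 and 17.3 CPM with MSC. The difference of the MSC effect was 2.92 ± 0.36 (adjusted p = 0.00912, edgeR). Both calls held in 11 of 12 fits without 1 library and missed the threshold without Con A 12h replicate 2 (adjusted p = 0.0505 for each, edgeR).

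In 4 further genes the MSC livers stood above the Con A livers at 12 h and were close to them at 6 h. Flt4, the receptor VEGFR3 of lymphatic and sinusoidal endothelium, measured 4.52, 3.96 and 3.31 CPM at 6 h with Con A alone and 2.90, 2.93 and 3.68 CPM with MSC. At 12 h Flt4 measured 1.76, 1.51 and 2.44 CPM against 6.80, 5.81 and 5.81 CPM. The groups overlapped at 6 h, and at 12 h every MSC liver was well above every Con A liver. Plvap, which builds the diaphragms of endothelial openings, measured 34.3, 27.1 and 29.6 CPM at 6 h with Con A alone and 22.6, 27.3 and 28.8 CPM with MSC. At 12 h Plvap measured 10.6, 13.6 and 12.9 CPM against 30.2, 26.5 and 26.1 CPM. With MSC the 12 h level of Plvap thus lay in the range of the 6 h levels, and without MSC it lay below all of them. The differences of the MSC effect were 2.00 ± 0.33 for Flt4 (adjusted p = 0.0433, edgeR) and 1.36 ± 0.22 for Plvap (adjusted p = 0.0427, edgeR).

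Jam2, a junctional adhesion molecule of endothelial cells, measured 6.63, 5.45 and 5.32 CPM at 6 h with Con A alone and 4.69, 3.95 and 5.18 CPM with MSC. At 12 h Jam2 measured 5.92, 3.68 and 4.44 CPM against 14.5, 14.9 and 10.6 CPM. The groups were narrowly apart at 6 h and far apart, in the other direction, at 12 h. Gimap4, a small GTPase of lymphocytes, was at 5.66, 7.16 and 8.0 CPM at 6 h with Con A alone and at 5.97, 4.62 and 6.82 CPM with MSC. It was at 3.78, 3.05 and 5.18 CPM at 12 h with Con A alone and at 11, 14.3 and 14.1 CPM with MSC, where the groups did not meet. The values were 1.84 ± 0.31 for Jam2 (adjusted p = 0.0499, edgeR) and 1.97 ± 0.33 for Gimap4 (adjusted p = 0.0496, edgeR). The calls of Flt4, Plvap, Jam2 and Gimap4 each held in 4 of 12 fits without 1 library, with adjusted p up to 0.154, 0.131, 0.154 and 0.154. Arap3, which turns off small GTPases, came next with 1.61 ± 0.28 and missed the threshold (adjusted p = 0.0511, edgeR). Arap3 too passed in 4 of 12 fits without 1 library.

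In Adcy1, Syt12 and Zbtb16 the Con A+MSC 12h livers were the lowest of the 4 groups. Adcy1, an adenylyl cyclase that makes cyclic AMP, was at 25.8, 25.9 and 24.0 CPM at 6 h with Con A alone and at 27.9, 19.0 and 24.1 CPM with MSC. It was at 4.55, 5.68 and 6.84 CPM at 12 h with Con A alone and at 1.72, 0.964 and 1.58 CPM with MSC. The groups met at 6 h only, and at 12 h all MSC livers were below all Con A livers. The log2 difference was -0.09 ± 0.22 at 6 h and -2.0 ± 0.24 at 12 h, and the difference of the MSC effect was -1.91 ± 0.32 (adjusted p = 0.0496, edgeR). The call held in 4 of 12 fits without 1 library, with adjusted p up to 0.154.

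Syt12, of the synaptotagmin family, measured 85.4, 78.0 and 78.2 CPM at 6 h with Con A alone and 104, 111 and 107 CPM with MSC. At 12 h Syt12 measured 38.4, 32.1 and 38.5 CPM against 13.3, 16.8 and 10.9 CPM. MSC livers were above all Con A livers at 6 h and below all of them at 12 h. The value was -1.83 ± 0.23 (adjusted p = 0.00912, edgeR), and it passed in 12 of 12 fits without 1 library. In GENCODE M21, 17.2% of the exon bases of Syt12 are shared with a transcript on the other strand, A930001C03Rik, whose reads cannot be told apart here because the strandedness of the libraries is not stated. Zbtb16, the transcription factor PLZF, measured 55.5, 44.5 and 57.4 CPM at 6 h with Con A alone and 68.7, 62.9 and 60.0 CPM with MSC. At 12 h Zbtb16 measured 24.3, 20.2 and 18 CPM against 8.47, 8.65 and 6.91 CPM, so its groups were apart in opposite directions at the 2 times. Its difference of the MSC effect was -1.66 ± 0.23 (adjusted p = 0.0163, edgeR). The call held in 9 of 12 fits and ended without Con A+MSC 6h replicate 1, Con A+MSC 12h replicate 3 or Con A 12h replicate 2, with adjusted p up to 0.0656.

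Nat8 and Tanc2 were higher with MSC at 6 h and lower with MSC at 12 h, with the groups apart at both times. Nat8, an N-acetyltransferase that completes mercapturic acids from glutathione conjugates, measured 1.79, 1.19 and 1.66 CPM at 6 h with Con A alone and 5.41, 5.65 and 8.25 CPM with MSC. At 12 h Nat8 measured 1.23, 2.07 and 2.15 CPM against 1.04, 0.526 and 0.791 CPM. The MSC livers at 6 h were the high group, and the other 9 libraries lay at or below 2.15 CPM. Its value was -3.26 ± 0.47 (adjusted p = 0.0191, edgeR). Tanc2, a scaffold protein, was at 2.72, 3.37 and 2.88 CPM at 6 h with Con A alone and at 6.16, 6.18 and 5.35 CPM with MSC. It was at 8.35, 8.33 and 8.80 CPM at 12 h with Con A alone and at 4.95, 5.56 and 4.25 CPM with MSC. Without MSC the level of Tanc2 was higher at 12 h than at 6 h in every library, while with MSC the ranges of the 2 times overlapped. Its value was -1.77 ± 0.25 (adjusted p = 0.0191, edgeR). The Nat8 call held in 4 of 12 fits without 1 library and the Tanc2 call in 7, with adjusted p up to 0.0801 and 0.0729.

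Next in order and not passing, each at an adjusted p of 0.0590 (edgeR), were 4 genes with lower values. These were Rtkn at -2.05 ± 0.36, Zc3h13, of the complex that methylates adenosines in mRNA, at -2.15 ± 0.39, Ikzf4, the lymphocyte transcription factor Eos, at -1.94 ± 0.35, and Gadd45g, a stress-induced growth arrest gene, at -1.54 ± 0.28. With 1 library left out, Rtkn, Zc3h13 and Ikzf4 each passed in 4 of 12 fits and Gadd45g in 3. Rtkn shares 41.6% of its exon bases with Wdr54 on the other strand. Gadd45g measured 325, 267 and 425 CPM at 6 h with Con A alone and 256, 245 and 237 CPM with MSC. At 12 h Gadd45g measured 160, 165 and 199 CPM against 45.9, 50.3 and 34.5 CPM. MSC livers were below Con A livers at both times, by more at 12 h.

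**Figure D3:**
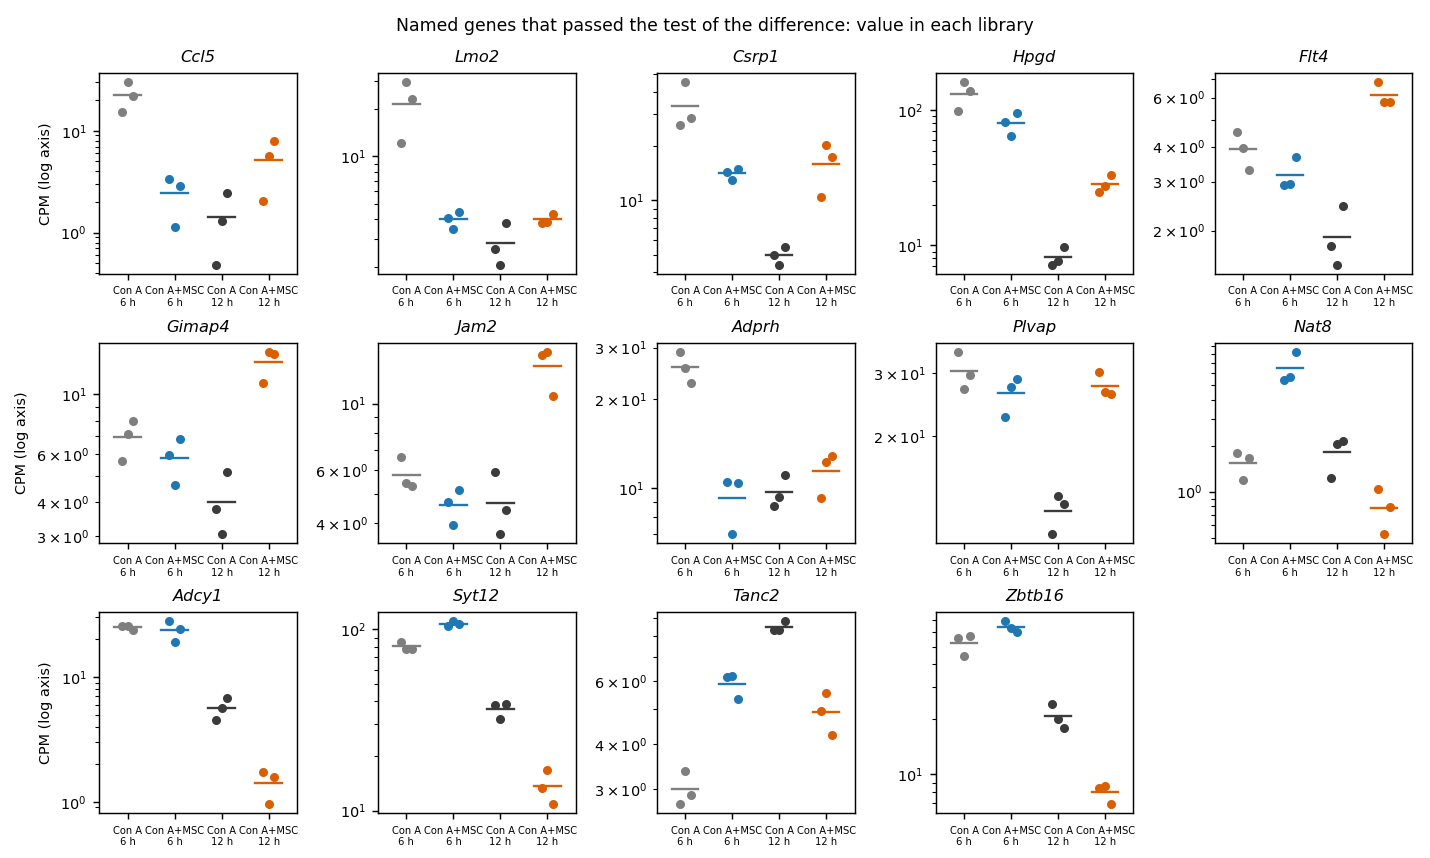
CPM of 14 passing genes with an official symbol in each of the 12 libraries (log axis), by group; points are libraries and bars are group means. In 9 genes the step from Con A to Con A+MSC points up more at 12 h than at 6 h, and in 5 it points down more.

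Among the loci that passed, 3 have no official symbol. Gm45717 measured 0, 0.0991 and 0.276 CPM at 6 h with Con A alone and 40.9, 32.9 and 25.6 CPM with MSC. At 12 h Gm45717 measured 16, 21.9 and 26.9 CPM against 9.83, 20.1 and 24.8 CPM. The counts assigned to Gm45717 were thus near or below the level of 3 counts in the Con A 6h livers and well above it in the other 9 libraries. Its exons in GENCODE M21 are shared with the interferon-induced gene Ifitm2 (54.1% of bases) and with Ifitm5 (45.9%) on the same strand, so its counts depend on how shared reads were assigned. The assembled locus MSTRG.15211 measured 0, 0.0991 and 0 CPM at 6 h with Con A alone, 6.64, 6.35 and 13.4 CPM with MSC, and no more than 2.26 CPM in any 12 h liver. MSTRG.17784 measured 9.78 to 23.5 CPM in the other 3 groups and 0.156, 1.18 and 0.248 CPM in Con A+MSC 12h. Adjusted p was 0.000575 for Gm45717, 0.00980 for MSTRG.15211 and 0.0191 for MSTRG.17784 (edgeR). Fitted fold changes against such low groups depend on the prior count and are no bound. The first 2 loci passed in 12 of 12 fits without 1 library and MSTRG.17784 in 6, with its highest adjusted p at 0.0729.

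Gene groups were described with 52 lists drawn from textbook biology (966 of their genes tested). Members and lists were chosen with earlier results of these data known, so the shares given for them are descriptions and support nothing. By rule, the lists with a passing member and the 6 highest and 6 lowest medians are given. All genes tested had a median of 0.01, with 50.7% above 0. Of the 52 list medians, 35 lay above 0, and 4 lists held a passing member.

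Genes induced by type I interferon had the highest median. Type I interferons act through transcription factors that bind a promoter motif called the interferon-stimulated response element, and the induced genes sense viral RNA or block viral growth. All 28 tested members had a value above 0, with a median of 1.84. None passed, and 24 of 28 were higher at an unadjusted p below 0.05, against 9.69% of all genes. The median MSC difference was -1.95 at 6 h and -0.14 at 12 h. Livers with and without MSC did not overlap at 6 h for 22 of the 28 and at 12 h for 3, against 16.6% and 26.4% of all genes tested.

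The motif occurs in some of the promoters of these genes. Of the 28, 21 have a promoter in the RefSeq table (GRCm38.p6), and 10 of the 21 (47.6%) hold GAAA, any 2 bases and GAAA on either strand in the 250 bases before the start, against 3.46% of 10583 tested genes with a promoter and 2.98% of all 32851 promoters. Overlapping matches were allowed. Among the other described lists it was highest for cytosolic ribosomal proteins, at 3 of 20 (15.0%), and for chemokines, at 2 of 15 (13.3%), while 0 of 13 Kupffer cell genes and 0 of 12 sinusoidal and vascular endothelial genes held it. The STAT motif TTCNNNGAA was in 2 of 21 (9.52%, against 7.4% of tested genes). A match is a description of the letters in this window and not a measured binding site. The list was chosen as genes that interferon induces, so its share of matches is no result of these data. The promoters of the 4 members with a match and the smallest unadjusted p are shown, 5′ to 3′ on the gene's strand, with the matches in capitals (in Trim30a the match is read on the other strand). Their positions in GRCm38.p6 are chr8:61927837-61928086 (Ddx60, plus strand), chr5:120907526-120907775 (Oas1a, minus), chr4:156200819-156201068 (Isg15, minus) and chr7:104465194-104465443 (Trim30a, minus).
Ddx60: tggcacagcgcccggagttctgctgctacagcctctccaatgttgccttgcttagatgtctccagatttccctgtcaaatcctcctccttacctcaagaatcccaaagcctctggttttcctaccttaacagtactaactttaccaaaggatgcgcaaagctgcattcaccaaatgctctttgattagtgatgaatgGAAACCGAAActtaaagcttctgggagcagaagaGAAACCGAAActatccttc
Oas1a: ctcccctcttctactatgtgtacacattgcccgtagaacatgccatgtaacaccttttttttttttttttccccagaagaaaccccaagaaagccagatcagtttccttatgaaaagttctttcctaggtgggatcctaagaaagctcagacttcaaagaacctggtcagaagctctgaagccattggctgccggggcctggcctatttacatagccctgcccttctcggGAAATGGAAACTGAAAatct
Isg15: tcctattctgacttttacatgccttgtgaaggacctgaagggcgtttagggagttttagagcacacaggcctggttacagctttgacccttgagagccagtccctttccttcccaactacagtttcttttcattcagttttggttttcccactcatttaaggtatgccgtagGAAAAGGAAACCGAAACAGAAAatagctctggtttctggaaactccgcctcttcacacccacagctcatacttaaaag
Trim30a: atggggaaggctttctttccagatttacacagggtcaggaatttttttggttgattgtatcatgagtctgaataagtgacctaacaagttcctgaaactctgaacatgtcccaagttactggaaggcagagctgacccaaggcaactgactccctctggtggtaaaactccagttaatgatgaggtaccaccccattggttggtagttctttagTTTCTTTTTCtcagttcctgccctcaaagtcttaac

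Ddx60, a helicase of antiviral RNA sensing, measured 18.9, 77.6 and 35.7 CPM at 6 h with Con A alone and 8.63, 4.06 and 7.0 CPM with MSC. At 12 h Ddx60 measured 12.7, 11.1 and 12.2 CPM against 6.99, 8.72 and 12.5 CPM. The Con A 6h livers were the high group, replicate 2 most of all, and the 12 h groups overlapped. Its value was 2.40 ± 0.60 (adjusted p = 0.0931, edgeR). Isg15, a ubiquitin-like protein attached to other proteins, averaged 585 ± 261 CPM at 6 h with Con A alone and 93.5 ± 23.8 CPM with MSC, and at 12 h 276 ± 103 against 155 ± 33.5 CPM (SD, n = 3 each). The MSC difference of Isg15 thus had the same sign at both times and was smaller at 12 h, with 1.82 ± 0.50 for the change between them (adjusted p = 0.108, edgeR). For Oas1a, which makes the activator of the antiviral RNase L, the value was 2.50 ± 0.63 (adjusted p = 0.0945, edgeR), and for Trim30a, of the TRIM ubiquitin ligase family, 1.32 ± 0.37 (adjusted p = 0.114, edgeR). The RNA sensors Ddx58 and Dhx58 had values of 1.81 ± 0.42 and 2.22 ± 0.54, and Rtp4, an interferon-induced transport protein, 1.43 ± 0.32 (adjusted p = 0.0814, 0.0883 and 0.0776, edgeR). The list depended in part on Con A 6h replicate 2, the liver with the highest summed level (14799 CPM, against 4050 in the lowest Con A 6h liver). Without it Ddx60 had 1.70 and Dhx58 1.47, the median was 1.31 and 16 members were higher at an unadjusted p below 0.05.

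**Figure D4:**
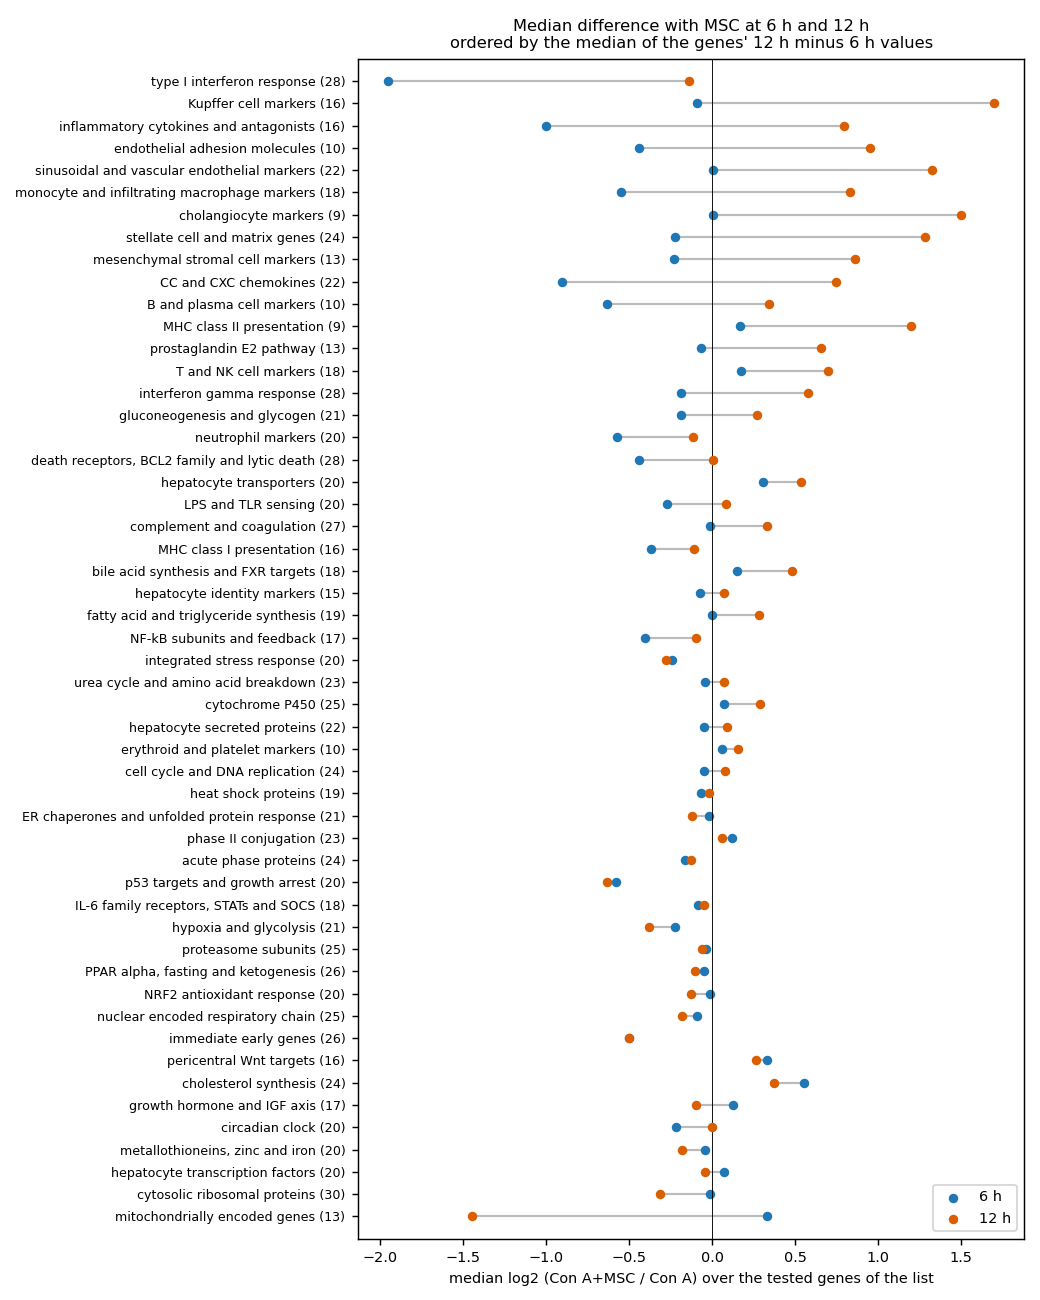
Median log2 difference between livers with and without MSC (x axis) at 6 h (blue) and 12 h (orange) for each of the 52 lists, with the number of genes tested in brackets, ordered by the median difference of the MSC effect. At the top, the type I interferon list went from -1.95 to -0.14, and at the bottom the mitochondrially encoded genes from 0.33 to -1.44.

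Chemokines and inflammatory cytokines were lower with MSC at 6 h and higher at 12 h in the median. The summed levels of both lists overlapped at both times. At 12 h the chemokine sums were 378 to 473 CPM with Con A alone and 422 to 482 CPM with MSC. The cytokine sums were 109 to 202 and 142 to 187 CPM. At 12 h, groups did not overlap for 7 of 22 chemokines and 6 of 16 cytokines, against 26.4% of all genes tested. At 6 h this held for 8 of 22 and 6 of 16, against 16.6%. For the 22 CC and CXC chemokines the median MSC difference was -0.90 at 6 h and 0.74 at 12 h, and the median difference of the MSC effect was 0.90, with 19 of 22 above 0. With 1 library left out, the median ran from 0.69 (no Con A 12h replicate 2) to 1.39 (no Con A 12h replicate 3). It was 1.43 with the mitochondrial covariate. Ccl5 passed and 9 of 22 were higher at an unadjusted p below 0.05, against 9.69% of all genes. Without Con A 6h replicate 3 that number was 7. Ccl7, a monocyte attractant, measured 25.5, 42.0 and 45.9 CPM at 6 h with Con A alone and 23.1, 19.4 and 13.5 CPM with MSC. At 12 h Ccl7 measured 3.73, 2.00 and 6.58 CPM against 7.53, 11.7 and 10.0 CPM. The groups were apart in opposite directions, and the value of 2.27 ± 0.52 missed the threshold (adjusted p = 0.0794, edgeR). Cxcl13, which attracts B cells, and Ccl12, a monocyte attractant, were below 3 CPM in every library, with adjusted p of 0.0808 and 0.0915 (edgeR). The level of Cxcl13 in Con A 12h (0, 0 and 0.0740 CPM) was at or below that of 3 counts.

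Of 16 tested cytokines and their antagonists, 15 were above 0, against 50.7% of all genes, with a median of 1.70. At an unadjusted p below 0.05, 10 were higher, against 9.69% of all genes. With 1 library left out, 8 to 13 were higher and the median ran from 1.41 to 2.16. The median MSC difference was -1.0 at 6 h and 0.79 at 12 h. Il1a, an alarm cytokine of dying cells and macrophages, measured 8.03, 9.24 and 9.82 CPM at 6 h with Con A alone and 7.95, 2.54 and 4.46 CPM with MSC. At 12 h Il1a measured 0.587, 0.394 and 0.666 CPM against 1.62, 1.56 and 1.2 CPM. It too was apart in opposite directions, with a value of 2.26 ± 0.51 (adjusted p = 0.0794, edgeR). Tgfb1, which drives matrix production and restrains T cells, had 1.63 ± 0.36, the macrophage growth factor Csf1 0.98 ± 0.28 and Il18bp, which neutralizes IL-18, 1.35 ± 0.39 (adjusted p = 0.0776, 0.120 and 0.124, edgeR). Il18bp was higher at 12 h than at 6 h: all Con A 12h livers (43.0 to 56.8 CPM) and all Con A+MSC 12h livers (69.1 to 92.2 CPM) stood above every 6 h liver.

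Of 22 markers of sinusoidal and vascular endothelium, 21 were above 0, with a median of 1.36. At an unadjusted p below 0.05, 16 were higher, against 9.69% of all genes. Flt4 passed. The median MSC difference was 0.00 at 6 h and 1.32 at 12 h, and livers with and without MSC did not overlap at 12 h for 16 of 22, against 26.4% of all genes tested. Their summed level was 69.1 to 102 CPM in Con A 12h, against 154 to 239 CPM at 6 h with Con A alone, 170 to 249 CPM at 6 h with MSC and 183 to 241 CPM at 12 h with MSC. In this sum the Con A 12h livers thus stood apart from the other 3 groups, which overlapped. Without Con A+MSC 6h replicate 2, 10 members were higher at an unadjusted p below 0.05.

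Dnase1l3, a nuclease secreted by sinusoidal cells and macrophages, measured 20.9, 17.5 and 25.4 CPM at 6 h with Con A alone and 15.7, 13.7 and 31.0 CPM with MSC. At 12 h Dnase1l3 measured 5.69, 3.02 and 7.07 CPM against 24.1, 30.1 and 34.9 CPM. The 6 h groups overlapped and the 12 h groups did not, and the value of 2.57 ± 0.48 came close to the threshold (adjusted p = 0.0590, edgeR). Lyve1, the hyaluronan receptor of sinusoidal and lymphatic endothelium, had 2.26 ± 0.47, and the liver-specific gene Oit3 2.76 ± 0.62 (adjusted p = 0.0699 and 0.0776, edgeR). Not all markers followed: the scavenger receptor Stab2 had 0.16 ± 0.44 (adjusted p = 0.891, edgeR).

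The 10 tested endothelial adhesion molecules, which hold leukocytes on the vessel wall, had a median of 1.52, with -0.44 at 6 h and 0.95 at 12 h. Jam2 passed and 7 of 10 were higher at an unadjusted p below 0.05, against 9.69% of all genes. Vcam1, the ligand of lymphocyte integrins, measured 118, 66.6 and 101 CPM at 6 h with Con A alone and 58.8, 53.1 and 71.4 CPM with MSC. At 12 h Vcam1 measured 12.5, 10.1 and 17.4 CPM against 19.2, 34.3 and 27.7 CPM. The groups met at 6 h and were apart at 12 h, with a value of 1.66 ± 0.38 (adjusted p = 0.0794, edgeR). Icam2 had 2.35 ± 0.55 and Selp, the P-selectin on which leukocytes roll, 1.29 ± 0.35 (adjusted p = 0.0814 and 0.104, edgeR). The median of this list was 1.14 without Con A+MSC 12h replicate 2.

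Kupffer cell markers had a median MSC difference of -0.09 at 6 h and 1.70 at 12 h. Their median difference of the MSC effect was 1.81. Of 16 members, 14 were above 0 and none passed, and the values ran from -0.98 to 4.00. At an unadjusted p below 0.05, 10 were higher and 1 was lower, against 9.69% and 7.13% of all genes. Livers with and without MSC did not overlap at 12 h for 13 of the 16, against 26.4% of all genes tested. Adgre1, the macrophage marker F4/80, measured 2.97, 2.08 and 2.05 CPM at 6 h with Con A alone and 3.18, 0.812 and 2.14 CPM with MSC. At 12 h Adgre1 measured 0.102, 0.197 and 0.222 CPM against 1.15, 1.75 and 1.65 CPM. The Con A 12h livers lay below all other libraries, with a value of 3.35 ± 0.68 (adjusted p = 0.0656, edgeR). Spic, the transcription factor of iron-recycling macrophages, had 3.81 ± 0.85, the scavenger receptor Marco 4.00 ± 1.02 and the complement subunit gene C1qb 1.82 ± 0.58 (adjusted p = 0.0776, 0.0970 and 0.148, edgeR). Marco measured 32.6 CPM in Con A+MSC 12h replicate 1 and 5.67 and 6.91 CPM in replicates 2 and 3, and its value was 2.72 without replicate 1. The summed level of the list overlapped at 12 h, at 217 to 236 CPM with Con A alone and 210 to 257 CPM with MSC. Without Con A 6h replicate 1, 6 members were higher at an unadjusted p below 0.05.

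Monocyte and infiltrating macrophage markers had a median of 1.26, with -0.55 at 6 h and 0.83 at 12 h. Of 18 members, 16 were above 0 and none passed, and the lowest value was -1.44. At an unadjusted p below 0.05, 7 were higher, against 9.69% of all genes. Without Con A 12h replicate 3 that count was 11 and the median 1.85. The count was 6 without Con A 6h replicate 2, and the median was 0.96 without Con A 12h replicate 2. The summed level of the list did not follow the median at 12 h. It was 1259 to 1778 CPM with Con A alone and 1130 to 1377 CPM with MSC, so the ranges overlapped and both ends were lower with MSC. At 6 h the sum was 1521 to 1842 CPM with Con A alone and 1122.5 to 1309 CPM with MSC. Plac8, a gene of myeloid cells and lymphocytes, measured 16.7, 21.2 and 15.3 CPM at 6 h with Con A alone and 9.82, 6.92 and 9.96 CPM with MSC. At 12 h Plac8 measured 9.83, 6.20 and 15.4 CPM against 13.8, 27.0 and 24.8 CPM. The groups were apart at 6 h and overlapped at 12 h, with a value of 2.06 ± 0.46 (adjusted p = 0.0776, edgeR). Ly6c2, which marks inflammatory monocytes, had 2.39 ± 0.56, and Cybb, the catalytic subunit of the phagocyte oxidase, 2.59 ± 0.64 (adjusted p = 0.0814 and 0.0897, edgeR). Ms4a6c had 2.52 ± 0.58 (adjusted p = 0.0814, edgeR) and shares 53.1% of its exon bases with BE692007 on the other strand.

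**Figure D5:**
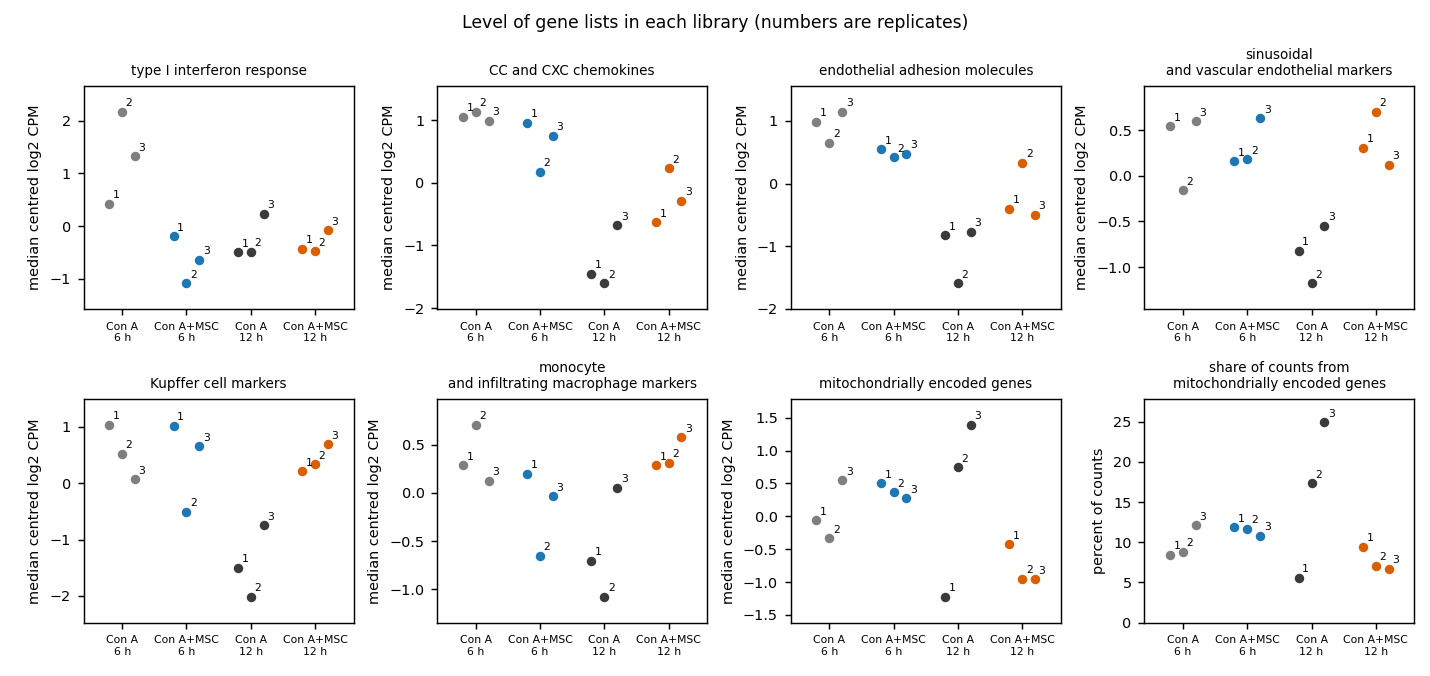
Median centred log2 CPM of the members of 7 lists, and the percent of counts from mitochondrially encoded genes (last panel), in each of the 12 libraries by group; points are libraries and numbers are replicates. In the sinusoidal endothelial and Kupffer cell lists the Con A 12h livers are the low group, and in the type I interferon list the Con A 6h livers are the high group.

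The prostaglandin E2 pathway entered through Hpgd, its passing member. The 13 tested genes of synthesis, breakdown and reception had a median of 0.77, with 10 above 0. At an unadjusted p below 0.05, 2 were higher and 1 was lower, which is near the shares of all genes (9.69% and 7.13%). Ptgs2, the inducible cyclooxygenase COX-2, measured 9.07, 19.8 and 23.5 CPM at 6 h with Con A alone and 11.4, 5.08 and 3.32 CPM with MSC. At 12 h Ptgs2 measured 0.434, 0.623 and 0.481 CPM against 0.626, 0.745 and 1.04 CPM. The groups overlapped at 6 h and were narrowly apart at 12 h, and the value of 2.06 ± 0.67 did not pass (adjusted p = 0.159, edgeR). Ptges3, a prostaglandin E synthase and HSP90 cochaperone, had -0.44 ± 0.20, and Pla2g4a, which frees arachidonic acid, 1.17 ± 0.64 (adjusted p = 0.295 and 0.376, edgeR). Without Con A 6h replicate 2, 4 members were higher at an unadjusted p below 0.05, and without Con A 12h replicate 2 the median was 0.48.

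The 13 mitochondrially encoded genes, which encode subunits of the respiratory chain and of ATP synthase, had the lowest median at -1.83. All 13 were below 0, and 11 were lower at an unadjusted p below 0.05, against 7.13% of all genes, while none passed. The cytochrome b gene mt-Cytb measured 11858, 9219 and 16721 CPM at 6 h with Con A alone and 17074, 15518 and 14953 CPM with MSC. At 12 h mt-Cytb measured 6198, 20959 and 35787 CPM against 9184, 6411 and 6343 CPM. Con A 12h replicates 2 and 3 were high and replicate 1 was the lowest library of all, so the groups overlapped at 12 h. Its value was -1.85 ± 0.66 (adjusted p = 0.191, edgeR). The complex I genes mt-Nd4l, mt-Nd5 and mt-Nd1 had -2.14 ± 0.63, -2.01 ± 0.73 and -1.85 ± 0.68 (adjusted p = 0.125, 0.193 and 0.198, edgeR). With the mitochondrial share as a covariate, which these genes themselves make up, mt-Cytb had -0.23. The count moved with those libraries: without Con A 12h replicate 3, 1 member was lower at an unadjusted p below 0.05, and without replicates 2 and 3 the median was 0.18 and no member was lower at that level.

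The other 5 lists with the lowest medians lay close to 0. The 30 cytosolic ribosomal protein genes had a median of -0.30, with 25 below 0. At an unadjusted p below 0.05, 4 of the 30 were lower, against 7.13% of all genes. The median MSC difference of the list was -0.01 at 6 h and -0.31 at 12 h. Rpl13a, of the large subunit, had -0.70 ± 0.25 (adjusted p = 0.184, edgeR). That gene shares 29.4% of its exon bases with Gm45713 on the same strand. Rpl18, Rpl13 and Rplp1 had -0.61 ± 0.24, -0.62 ± 0.26 and -0.57 ± 0.26 (adjusted p = 0.224, 0.266 and 0.296, edgeR). The number lower at that level ran from 1 without Con A 6h replicate 2 or replicate 2 or 3 of Con A+MSC 12h to 8 without Con A+MSC 12h replicate 1. With scaling by library totals, which moved the median of all genes to 0.28, the median of the ribosomal list was -0.04.

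For 20 hepatocyte transcription factors the median was -0.20. At an unadjusted p below 0.05, 1 member was higher and 4 were lower, against 9.69% and 7.13% of all genes. Cebpb, the acute-phase factor C/EBP beta, measured 493, 407 and 448 CPM at 6 h with Con A alone and 414, 382 and 416 CPM with MSC. At 12 h Cebpb measured 236, 176 and 152 CPM against 119, 84.6 and 78.7 CPM. The groups overlapped at 6 h and were apart at 12 h, with a value of -0.85 ± 0.28 (adjusted p = 0.167, edgeR). Cebpb shares 20.7% of its exon bases with Tmem189 on the other strand. The forkhead factor Foxa3 had -0.62 ± 0.22, Onecut2 -1.28 ± 0.46 and Xbp1, of the unfolded protein response, -0.57 ± 0.22 (adjusted p = 0.192, 0.195 and 0.228, edgeR). Onecut2 measured 55.0, 137 and 156 CPM in Con A 12h replicates 1, 2 and 3, and its value was -0.21 without replicates 2 and 3 and -0.33 with the mitochondrial covariate. With scaling by library totals the median of this list was 0.10.

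The list of metallothioneins, zinc and iron genes (20 tested, median -0.19) had 1 member higher and 4 lower at an unadjusted p below 0.05. Over all genes the shares were 9.69% and 7.13%. Mt2, a metal-binding protein induced by zinc and stress, measured 5273, 4080 and 5509 CPM at 6 h with Con A alone and 4759, 4402 and 4138 CPM with MSC. At 12 h Mt2 measured 3065, 5806 and 6732 CPM against 1841, 1377 and 1019 CPM. The groups overlapped at 6 h, and at 12 h every MSC liver was below every Con A liver, with a value of -1.72 ± 0.42 (adjusted p = 0.0883, edgeR). In GENCODE M21, 73.5% of the exon bases of Mt2 are shared with Gm45774 on the other strand. Mt1 had -1.87 ± 0.50, Hamp, the iron hormone hepcidin, -1.72 ± 0.64 and Ftl1, the ferritin light chain, -0.93 ± 0.29 (adjusted p = 0.103, 0.202 and 0.139, edgeR). For Ftl1, 26.5% of the exon bases are shared with Gm10252 on the other strand. Mt1, Mt2 and Ftl1 were highest at 12 h in Con A replicates 2 and 3, the libraries with the highest mitochondrial share, and so was Onecut2 among the hepatocyte transcription factors. With that share as a covariate the values of Mt1, Mt2 and Ftl1 were -1.02, -1.02 and -0.53, and without those 2 libraries -0.93, -0.96 and -0.56. Hamp had -1.08 and -0.82 in the same fits. The number of members lower at that level was 8 without Con A 6h replicate 1 and 7 without Con A 12h replicate 3. The list median was 0.09 with scaling by library totals.

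The circadian clock list (20 tested, median -0.15) held 5 members higher and 3 lower at an unadjusted p below 0.05, against 9.69% and 7.13% of all genes, and none passed. The output factor Hlf had 1.05 ± 0.25, the clock repressor Per2 1.21 ± 0.42 and the repressor Bhlhe41 -2.25 ± 0.54 (adjusted p = 0.0855, 0.177 and 0.0855, edgeR). The value of Bhlhe41 was -1.58 without Con A 12h replicates 2 and 3. Hlf was apart in opposite directions at the 2 times. It measured 8.71, 12.2 and 11.2 CPM at 6 h with Con A alone and 6.44, 8.08 and 7.68 CPM with MSC, and at 12 h 19.6, 16.3 and 14.6 CPM against 21.6, 24.3 and 26.9 CPM. Without Con A+MSC 12h replicate 3, 3 members were higher at that level, and with scaling by library totals the list median was 0.15.

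Of the 17 tested genes of the growth hormone and IGF axis (median -0.14), 1 was higher and 5 were lower at an unadjusted p below 0.05. Over all genes the shares were 9.69% and 7.13%. Cish, a STAT5-induced inhibitor of cytokine receptors, measured 87.7, 87.2 and 85.4 CPM at 6 h with Con A alone and 81.2, 87.7 and 73.0 CPM with MSC. At 12 h Cish measured 18.3, 17.8 and 12.7 CPM against 7.85, 7.01 and 4.77 CPM. The groups overlapped at 6 h and were apart at 12 h, with a value of -1.21 ± 0.27 (adjusted p = 0.0776, edgeR). Igf1, the main growth factor released by the liver under growth hormone, had -1.25 ± 0.32, the feedback inhibitor Socs2 -1.48 ± 0.49 and the steroid-metabolizing Hsd3b5 3.51 ± 1.03 (adjusted p = 0.0945, 0.165 and 0.126, edgeR). Without Con A 12h replicates 2 and 3, Socs2 had -0.49 and Igf1 -0.79; the fit with the mitochondrial covariate gave -0.52 and -0.83. Hsd3b5 had 2.62 without Con A+MSC 12h replicate 3. Without Con A+MSC 6h replicate 1, 3 members were lower at that level, and without Con A 6h replicate 2, 2 members were higher. With scaling by library totals the list median was 0.10.

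The other lists of cell type markers are outside that rule. Among all genes, 9.69% were higher and 7.13% lower at an unadjusted p below 0.05. The 24 stellate cell and matrix genes had a median of 1.15, with 17 higher at an unadjusted p below 0.05 and none passing. The 13 tested markers of mesenchymal stromal cells, the class of cell that was given, had a median of 1.0, with 12 above 0, 8 higher at that level and none passing. Their median MSC difference was -0.23 at 6 h and 0.86 at 12 h. Their summed level was 330 to 361 CPM at 6 h with Con A alone and 268 to 314 CPM with MSC, and at 12 h 149 to 208 CPM with Con A alone and 257 to 314 CPM with MSC. This list shares members with others, so its values are not separate from theirs. Vcam1 is also an endothelial adhesion molecule here, Eng an endothelial marker, and Pdgfra and Pdgfrb are among the stellate cell genes. Vcam1 alone averaged 95.1 CPM in Con A 6h. The labels do not give the species of the MSC, and the part of the given cells in these levels was not tested. The 9 tested cholangiocyte markers had a median of 1.16 (0.00 at 6 h and 1.5 at 12 h) with 3 higher. The 15 hepatocyte identity markers had a median of 0.26, with none higher and 1 lower at that level. The 20 neutrophil markers had a median of 0.52 with 1 higher, and the 18 tested T and NK cell markers 0.69 with 1 higher and 1 lower. The 10 tested B and plasma cell markers had a median of 0.88 with none higher or lower, and the 10 erythroid and platelet markers 0.11 with 1 higher.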

How the data were processed

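Liver RNA from 12 mouse samples was measured by sequencing; per the labels' protocols, mRNA was captured on oligo(dT) beads and copied with random hexamers. The authors deposited 4 tables of raw whole-number counts per gene, 1 for each group. HISAT2 2.0.4, Bowtie2 2.2.5, StringTie 2.1.2 and GRCm39 are named in the submitters' processing notes; the sources used here do not give the counting program, the annotation or the strandedness. Groups were taken from the labels.

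All 12 libraries entered 1 fit with a mean per group (8 residual degrees of freedom) in edgeR 4.0.16 (R 4.3.3): filterByExpr by group, TMM factors, glmQLFit and glmQLFTest, two-sided, on the difference of the MSC effect, with Benjamini-Hochberg adjustment over all 14275 genes tested and a threshold of 0.05. SE is the log2 value divided by the square root of F. The procedure was also run on simulated counts, drawn independently for each gene and library. These held no shift shared by many genes of 1 library, and the run is not used as support here. CPM are counts per 1000000 counts with TMM factors.

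Alternatives were other scalings and filters, DESeq2 1.42.0, limma 3.58.1 voom, the replicate number as a block, the mitochondrial share as a covariate, mitochondrial genes left out, and each library left out. The members and lists were chosen with earlier results of these data known. Genes were named by a rule: up to 15 passing genes per direction with an official symbol and a mean of at least 5 CPM in a group, filled to 10 by smallest unadjusted p, and up to 4 members per described list with the smallest unadjusted p. Loci without a symbol, and Isg15, Oas1a, Trim30a and Stab2, were named outside it after their values were seen. A few picks of this rule are not reported here. Of the names in the lists, 994 are in the tables and 966 were tested. Promoters are those of RefSeq (GRCm38.p6); overlapping exons are from GENCODE M21.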

Additional observations from a re-analysis of the deposited data

Results flagged for a closer look

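The 17 genes listed here stand out because the MSC difference at 12 h differed from that at 6 h by the edgeR test of the difference itself. Higher at 12 h, as log2 difference of the MSC effect, were Ccl5 (5.09), Lmo2 (2.93), Csrp1 (2.92), Hpgd (2.52), Flt4 (2.00), Gimap4 (1.97), Jam2 (1.84), Adprh (1.71) and Plvap (1.36). Lower at 12 h were MSTRG.15211 (-9.50), Gm45717 (-8.30), MSTRG.17784 (-4.87), Nat8 (-3.26), Adcy1 (-1.91), Syt12 (-1.83), Tanc2 (-1.77) and Zbtb16 (-1.66). The fitted values of MSTRG.15211, Gm45717 and MSTRG.17784 depend on the prior count.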

How the results depend on the processing

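With all libraries 9 genes passed as higher and 9 as lower. The counts were 9 and 9 with DESeq2 size factors, 187 and 24 with library totals only, 25 and 20 with no filter, 3 and 8 with at least 10 counts in at least 3 libraries, 468 and 237 with the DESeq2 test, 18 and 15 with limma voom, 5 and 4 with the share of mitochondrial counts fitted as a covariate and 3 and 8 with mitochondrially encoded genes left out. Scaling by library totals moved the median of all genes from 0.01 to 0.28. Leaving out 1 library gave 0 to 95 higher and 3 to 74 lower. Leaving out Con A 12h replicates 2 and 3 together, chosen after seeing the data, gave 4 and 3 (3 of the 18: Gm45717, Syt12 and Zbtb16). With the replicate block the counts were 6 and 9, and 13 of the 18 passed. The labels do not say that replicate numbers pair the samples: deviations of same-numbered libraries correlated at -0.226 to 0.130 (1 of 18 pairs over 0.1), and 2 of 12 libraries correlated best with their own number. Of the genes named by the rule, mt-Nd5 (0.14) and mt-Nd1 (0.04) changed sign, without Con A 12h replicates 2 and 3, and no other did under the settings tried; Isg15, Oas1a, Trim30a and Stab2 were not followed across settings. List medians were followed for the 14 described lists; with library totals 4 of these turned positive: metallothioneins, zinc and iron 0.09, hepatocyte transcription factors 0.10, growth hormone and IGF axis 0.10 and circadian clock 0.15. The circadian median was 0.17 with the mitochondrial covariate and 0.25 without Con A 12h replicates 2 and 3, where the hepatocyte transcription factors gave 0.02. The median of the mitochondrially encoded genes was -0.04 with that covariate. The cause of these shifts was not tested. Depth limits genes near 3 counts, such as Cxcl13 and MSTRG.15211.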
